A study of Mus musculus with 43 samples.

Results

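The Toll-like receptors described here are Tlr1, Tlr2, Tlr3, Tlr4, Tlr6, Tlr7, Tlr8 and Tlr9, which were taken by gene symbol from the array annotation. They are 8 of 19752 measured genes, and each was read by 1 probe set. Each of 43 Affymetrix Mouse Gene 1.0 ST arrays held RNA of 1 sorted immune cell population from male C57BL/6 mice, 6 weeks old. The mice carried no genetic modification in the labels, and they were either untreated (baseline, 26 arrays) or taken 2 h after a subcutaneous dose of 10000 U of interferon alpha, a type I interferon (17 arrays). Spleen gave conventional CD4+ T cells, CD25+ CD4+ regulatory T cells, CD8+ T cells, gamma-delta T cells, NKT cells, NK cells, neutrophils and dendritic cells, and the peritoneal cavity gave macrophages, 9 types in all. Each type had 3 baseline and 2 interferon arrays, except that neutrophils had 2 baseline arrays and macrophages had 1 interferon array.

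The labels limit the groups in several ways. The baseline mice are not labelled as given a vehicle. Whether the arrays of a group came from different animals is not stated, so that p-values cover array-to-array spread, which may be technical. For CD8+ T cells, baseline arrays 1 and 2 have blood as their source, and for macrophages the same 2 arrays have a spleen preparation, against their titles. The preparation of baseline arrays 1 and 2 is worded differently from that of the other arrays, so treatment and preparation are partly confounded. In neutrophils, CD4+ T, NK and NKT cells no interferon array shares its wording with a baseline array. In these types an effect of treatment cannot be told apart from one of preparation. A term for preparation wording, used in an alternative fit, set only baseline arrays 1 and 2 apart. Defining markers stood where the labels put them: Cd4, Cd8a, Foxp3, Sox13, Ncr1, Zbtb16, Flt3, Adgre1 and Ly6g each had their highest baseline mean in the type they define. Of the arrays, 41 of 43 correlated best with an array of their own type, and the exceptions were gamma-delta T cell baseline array 2 and interferon array 1.

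Toll-like receptors are membrane proteins that recognise microbial molecules and damaged-cell products. Tlr2 pairs with Tlr1 or Tlr6 at the cell surface to detect lipopeptides, and Tlr4 with its partner Ly96 (MD-2) detects lipopolysaccharide, while Tlr3 (double-stranded RNA), Tlr7 and Tlr8 (single-stranded RNA and its breakdown products) and Tlr9 (CpG DNA) sit in endosomes. Most of them signal through the adaptor Myd88, Tlr3 signals through Ticam1 (TRIF), and the outputs are NF-kappaB target genes, cytokines and, through Irf7 among others, type I interferon itself.

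Levels are log2 intensities, on which 1 unit is a doubling, and no probe set's level was set against that of another. A gene was called raised or lowered when limma's Benjamini-Hochberg adjusted p was under 0.05 and the log2 difference was at least 1. Of the 72 combinations of a receptor and a cell type, 21 were raised and 1 was lowered after interferon, where 1.64% of all gene-by-type effects were raised and 0.659% lowered. Tlr3 was raised in 9 cell types and Tlr7 in 7, Tlr4 was raised in 2, and Tlr2, Tlr8 and Tlr9 in 1 each. Tlr1 was lowered in 1 type, and Tlr6 was not called in any. The median receptor difference averaged over the cell types was 0.39, against -0.01 for all genes. Only Tlr3 and Tlr7 were called on that average, at which 1.26% of all genes were raised.

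**Figure D1:**
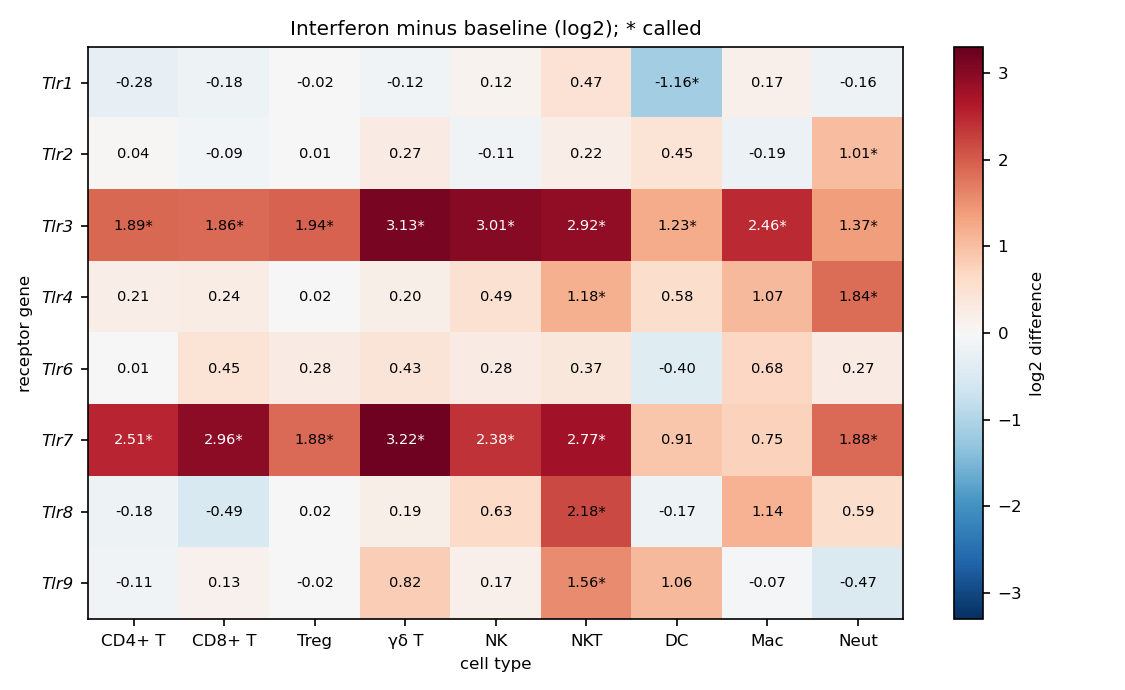
Log2 difference between interferon and baseline for each receptor (rows) in each cell type (columns), with a star where the difference was called (adjusted p under 0.05 and a log2 difference of at least 1). The Tlr3 row is starred in 9 columns and the Tlr7 row in 7, and the only lowered cell is Tlr1 in dendritic cells at -1.16.

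Tlr3, the endosomal receptor for double-stranded RNA, had the plainest pattern. At baseline it was high in dendritic cells (9.91 ± 0.44, SD, n = 3) and intermediate in macrophages (7.96 ± 0.24, n = 3). Its means in the other 7 types lay between 5.76 and 5.96. Dendritic cells exceeded macrophages by 1.95 (limma adjusted p = 1.24e-09), and macrophages exceeded the next type by 2.00 (5.18e-10). Neighbours among the remaining 7 types overlapped and were not called.

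After interferon Tlr3 was raised in 9 of 9 types, as only 0.456% of all genes were, and in each type every interferon array lay above every baseline array. In gamma-delta T cells the baseline arrays read 5.40, 6.02 and 6.12 and the interferon arrays 9.02 and 8.93, a difference of 3.13 (SE 0.228, limma adjusted p = 4.64e-12). The deposited values hold no background level, so whether the low baseline readings stood above background was not tested, and no fold is given from them. NK cells moved from 5.82, 6.15 and 5.87 to 9.18 and 8.74, a difference of 3.01. In NKT cells, 5.80, 5.86 and 5.92 became 8.94 and 8.62, a difference of 2.92. These 3 innate-like lymphocyte types, which started at the same low level as the others, ended near 9. Markers of other cells moved in some of these arrays: the median of 6 NK cell markers in gamma-delta T cells was 9.66, 8.27 and 7.13 at baseline and 6.66 and 6.97 after interferon, with 3 (Klrb1c, Klra8 and Klre1) lowered and 1 (Eomes) raised. In NK cells themselves, where Tlr3 was also low at baseline, that median lay between 11.61 and 12.21. The T cell marker Cd5 was lowered in gamma-delta T cells as well, at -1.38. The median of 5 plasmacytoid dendritic cell markers was 7.69 to 8.16 in gamma-delta T cells at baseline and 8.62 to 9.24 after interferon. In NK cells it was 7.61 to 8.04 and then 8.72 to 8.85. Of these 5 only Bst2 was called, as raised, in both types. In dendritic cells the median went the other way, from 8.38 to 8.55 at baseline to 8.12 to 8.18. The part of these markers in the gamma-delta T and NK cell results was not tested.

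The conventional T cells rose less. CD4+ T cells went from 5.66, 5.87 and 5.86 to 7.34 and 8.02 (difference 1.89, SE 0.228, limma adjusted p = 6.43e-07). CD8+ T cells went from 5.88, 6.22 and 5.78 to 7.75 and 7.88, a difference of 1.86, and regulatory T cells from 5.84, 5.76 and 5.69 to 7.40 and 7.99, a difference of 1.94. No interferon array of these 3 types reached the lowest interferon array of gamma-delta T, NK or NKT cells. A comparison chosen after these values were seen put the mean effect at 3.02 in the innate-like types against 1.89 in the conventional types, a difference of 1.13 (SE 0.186, limma adjusted p = 0.00111, background 0.137% raised). It lost its call with baseline replicate 3 alone as the baseline (0.98, limma adjusted p = 0.284, 7 residual degrees of freedom).

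Cells that already held Tlr3 also rose. The 1 macrophage interferon array read 10.42 against 7.72, 8.19 and 7.97 at baseline (difference 2.46, SE 0.289), with the spread taken from the other groups. Dendritic cells went from 9.43, 10.00 and 10.30 to 11.22 and 11.06, a difference of 1.23 (SE 0.228, limma adjusted p = 0.000285), which was 0.99 and not called without dendritic cell baseline array 1, nor with baseline replicate 3 alone (0.84, limma adjusted p = 0.215). Neutrophils, low at baseline with 6.04 and 5.68, reached 7.34 and 7.12, a difference of 1.37 (SE 0.25, limma adjusted p = 0.000185).

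The Tlr3 effect differed among cell types (F test, limma adjusted p = 0.000196, where 4.16% of all genes passed). In dendritic cells it was 1.09 log2 units smaller than the mean of the other 8 types, a difference of -1.09 (SE 0.243, limma adjusted p = 0.00812, background 0.304% lowered). That call was lost without dendritic cell baseline array 3 (-0.90, limma adjusted p = 0.0628) or interferon array 2 (-1.01, 0.17). The effect in dendritic cells, macrophages and neutrophils, grouped as myeloid types, was 1.69 against 2.46 in lymphocytes, a difference of -0.77 that passed the p threshold (limma adjusted p = 0.00657) but not the fold threshold.

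The promoter of Tlr3 is shown because this receptor was the only member raised in every cell type. RefSeq's table (GRCm38.p6) gave promoters, 250 bases before to 50 after a start, for 6 of the 8 members. It had none for Tlr4 and Tlr7, which were therefore not searched. The promoters given were searched on both strands for 4 motifs. These were the interferon-stimulated response element (ISRE), written as 2 copies of GAAA with any 2 bases between them, the shorter IRF motif (AANNGAAA), which lies within every ISRE match, the gamma-activated site (GAS), written as TTC and GAA with any 3 bases between them, and a purine-rich ETS motif (GAGGAAGT). Of 32851 promoters of this length, 3.44% held the ISRE, 23.9% the IRF motif, 8.3% the GAS and 3.2% the ETS motif. The Tlr3 window, chr8:45410331-45410630 on the minus strand, held 1 IRF motif and no match to the other 3, with the motif at -59 to -52 from the start and written in capitals as the complement TTTCACTT.
Tlr3: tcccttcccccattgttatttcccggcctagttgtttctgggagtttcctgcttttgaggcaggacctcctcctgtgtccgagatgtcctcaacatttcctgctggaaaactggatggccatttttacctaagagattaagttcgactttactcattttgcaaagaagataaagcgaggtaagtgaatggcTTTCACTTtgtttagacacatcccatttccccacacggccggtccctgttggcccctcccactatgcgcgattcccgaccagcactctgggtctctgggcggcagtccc
Among the other members in the table, the first Tlr6 window held 4 IRF motifs, the Tlr2 window held 2 and 1 of the 2 Tlr1 windows held 1. The GAS was found in that same Tlr1 window (1 match), in the second Tlr6 window (2 matches) and in the Tlr8 window (1 match, at -106 to -98), and the ETS motif in the first Tlr1 window and the Tlr9 window (1 match each). A match describes letters and no binding was measured.

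Tlr7, which senses single-stranded RNA, was spread widely at baseline. Macrophages (9.76 ± 0.29, SD, n = 3), dendritic cells (9.26 ± 0.36) and regulatory T cells (8.82 ± 0.26) stood highest, with overlapping neighbours. Regulatory T cells exceeded CD8+ T cells, next in order, by 1.31 (limma adjusted p = 0.00114). CD8+ T cells (7.51), neutrophils (7.44), NKT cells (7.09), CD4+ T cells (6.94) and gamma-delta T cells (6.39) followed without a called step. NK cells were lowest at 4.68 ± 0.24, which was 1.72 below gamma-delta T cells (limma adjusted p = 1.56e-05). Between the 36 pairs of cell types, 25 were called for Tlr7, against 9.59% of such comparisons over all genes.

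Interferon raised Tlr7 in all 6 lymphocyte types and in neutrophils. Gamma-delta T cells went from 6.25, 5.97 and 6.96 to 9.84 and 9.38, a difference of 3.22 (SE 0.302, 9.31-fold), in the arrays whose NK cell markers are given under Tlr3. Whether these baseline readings stood above background was not tested, so the fold describes intensities only. The median of B cell markers in these arrays was 8.51, 8.06 and 10.69 at baseline and 9.13 and 7.70 after interferon. Its part in the Tlr7 result was not tested. CD8+ T cells went from 7.55, 7.52 and 7.45 to 10.28 and 10.66, a difference of 2.96, and NKT cells from 7.34, 6.35 and 7.57 to 10.16 and 9.55, a difference of 2.77. None of these interferon arrays overlapped its baseline arrays.

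CD4+ T cells rose from 6.79, 7.04 and 6.98 to 9.22 and 9.68, a difference of 2.51. In NK cells 4.47, 4.62 and 4.94 became 6.55 and 7.58, a difference of 2.38, and NK cells were still the lowest type. Regulatory T cells moved from 8.59, 8.76 and 9.11 to 10.62 and 10.77 (difference 1.88), and their mean of 10.70 was then the highest. Their interferon arrays overlapped those of CD8+ T cells (10.28 and 10.66), and levels after interferon were not tested between types. Neutrophils moved from 7.32 and 7.57 to 9.40 and 9.25, a difference of 1.88. The regulatory T cell call was lost with baseline replicate 3 alone (1.59, limma adjusted p = 0.0628).

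The 2 types that held most Tlr7 at baseline had the smallest differences. Dendritic cells read 9.61, 9.26 and 8.90 before and 9.93 and 10.40 after interferon, without overlap, but the difference of 0.91 (95% interval 0.30 to 1.52, limma adjusted p = 0.067) was not called. It was 1.09 and called without dendritic cell baseline array 1 (limma adjusted p = 0.0475). Macrophages read 9.42, 9.95 and 9.90 before and 10.51 after interferon, a difference of 0.75 (95% interval -0.02 to 1.53, limma adjusted p = 0.56).

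As a test of the difference itself, the Tlr7 effect was 1.18 in myeloid types and 2.62 in lymphocytes, a difference of -1.44 (SE 0.232, limma adjusted p = 0.000115), where 0.228% of all genes were lowered. Tlr7 was the 1 receptor called in this comparison. In dendritic cells alone the effect was -1.39 from the mean of the other 8 types (SE 0.322, limma adjusted p = 0.0116), a call lost without dendritic cell baseline array 1 (-1.21, limma adjusted p = 0.0826) or interferon array 1 (-1.15, 0.264). With baseline replicate 3 alone, which leaves out neutrophils, the myeloid difference was -1.42 (limma adjusted p = 0.0726) and the dendritic cell difference -0.84 (0.761). The 9 group means spanned 5.08 log2 units at baseline and 3.64 after interferon.

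**Figure D2:**
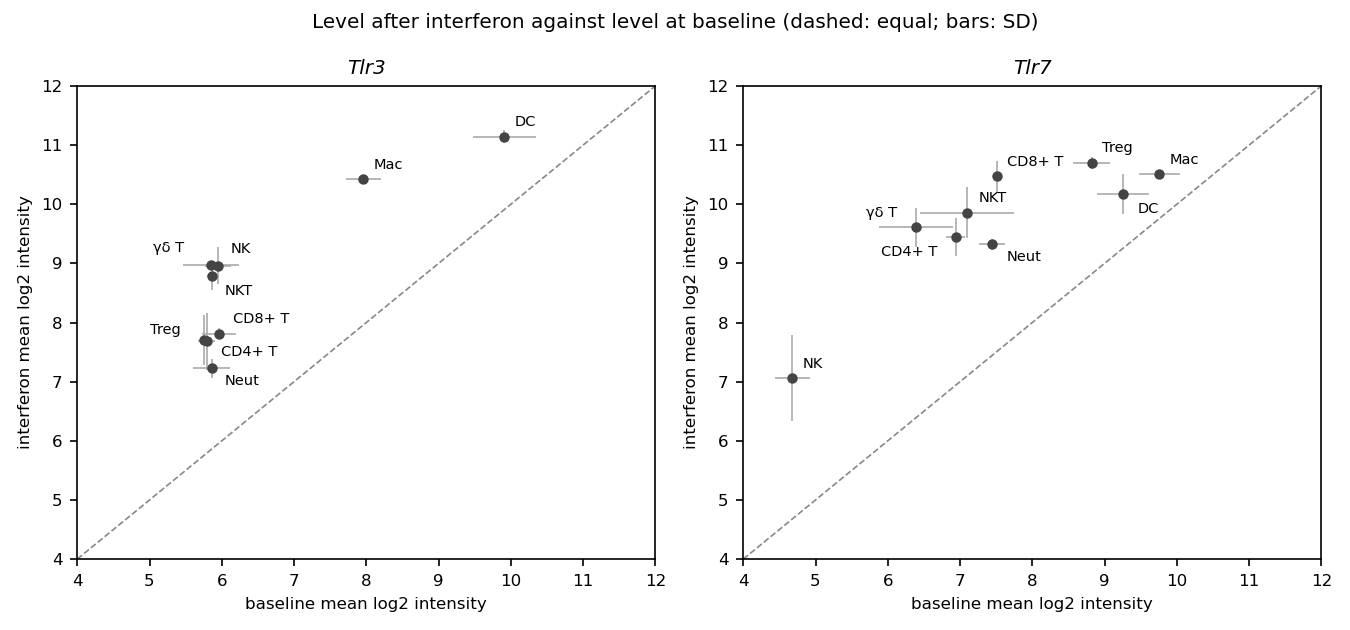
Mean log2 intensity after interferon (vertical axis) against baseline (horizontal axis) for Tlr3 and Tlr7 in the 9 cell types; bars are SD over arrays (no vertical bar for the 1 macrophage interferon array) and the dashed line marks equal levels. For Tlr3 the gamma-delta T, NK and NKT cells stand above CD4+, CD8+ and regulatory T cells at like baseline levels, and for Tlr7 the types highest at baseline lie nearest the line.

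Tlr8 is a neighbour of Tlr7 on the X chromosome, with 0 protein-coding genes between them in RefSeq's table. Its baseline levels differed from those of Tlr7: macrophages (9.41 ± 0.38) and neutrophils (9.09 ± 0.08, SD, n = 2) were high, dendritic cells stood at 7.16 ± 0.34 and NKT cells at 6.16 ± 0.69, and the other 5 types lay between 4.78 and 5.10. Neutrophils exceeded dendritic cells by 1.93 (limma adjusted p = 9.12e-06). Over the 9 baseline means Tlr7 and Tlr8 had a Pearson r of 0.58. Regulatory T cells, high for Tlr7, were among the low types for Tlr8.

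Interferon raised Tlr8 in NKT cells alone of the 9 types. NKT arrays went from 6.31, 5.41 and 6.76 to 9.12 and 7.55, a difference of 2.18 (SE 0.321, 4.52-fold, limma adjusted p = 9.58e-06). The 2 interferon arrays differed from each other by more than the baseline arrays did, and both were above all 3 of them. Whether the baseline readings stood above background was not tested, so the folds given for Tlr8 describe intensities only. The difference was 1.39 (2.63-fold, limma adjusted p = 0.0146) without interferon array 1 and 2.96 (7.78-fold) without interferon array 2. The call was lost when NKT cells were fitted alone (limma adjusted p = 0.0962) and with baseline replicate 3 alone (1.58, 0.116). Against the mean of the other 8 types the NKT effect was 1.96 higher (SE 0.342, limma adjusted p = 0.00231, background 0.294% raised). That difference was 1.18 and not called without NKT interferon array 1 (limma adjusted p = 0.412), 2.74 without interferon array 2, and 1.42 and not called with baseline replicate 3 alone.

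Markers of macrophages also varied among the NKT arrays. The median of the 7 measured macrophage and monocyte markers of 8 listed was 9.47, 7.58 and 8.76 in NKT baseline arrays and 10.29 and 9.05 in the interferon arrays, and 2 of the 7, Mertk and Fcgr1, were raised. In CD4+, CD8+, regulatory and gamma-delta T cells and NK cells the same median lay between 5.96 and 6.92, and in macrophages between 11.63 and 12.06. Fcgr1, an Fc receptor, was also raised in dendritic cells, macrophages and neutrophils. In the NKT arrays the T cell marker median was 11.45 to 11.60 at baseline and 10.81 to 11.08 after interferon. The NKT cell marker median was 11.36 to 11.56 and then 10.53 to 10.62, with 0 markers of either list called. NK cell markers went from 8.80 to 9.93 up to 10.01 to 10.29, with Eomes raised. The plasmacytoid dendritic cell markers Bst2 and Tcf4 were raised, while that list's medians overlapped. The part of these markers in the NKT results was not tested. In sorted bulk samples, more cells of a type and more RNA per cell cannot be told apart.

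In macrophages Tlr8 read 9.07, 9.82 and 9.34 before and 10.55 after interferon, a difference of 1.14 with 1 interferon array (95% interval 0.31 to 1.96, limma adjusted p = 0.2), which was not called. Neutrophils moved by 0.59 (95% interval -0.12 to 1.31). Dendritic cells differed by -0.17, and in the 5 low types the differences ran from -0.49 to 0.63. The means of Tlr8 spanned 4.63 log2 units at baseline and 6.09 after interferon.

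Tlr9, the receptor for CpG DNA, was highest in dendritic cells at 11.00 ± 0.22 (SD, n = 3), which was 2.60 above gamma-delta T cells, next in order (limma adjusted p = 5.36e-06). No other step between neighbours was called, and the remaining means ran from 8.40 down to 6.95. The gamma-delta T cell arrays read 8.01, 7.67 and 9.52, and the median of 9 measured B cell markers of 10 listed in the same arrays was 8.51, 8.06 and 10.69. In both series of values array 3 was highest and array 2 lowest. B cell markers in the 4 lymphocyte types CD4+ T, CD8+ T, regulatory T and NK cells had medians between 6.01 and 7.02, and their part in the Tlr9 level of gamma-delta T cells was not tested.

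After interferon Tlr9 was called in 1 type, NKT cells, which was not shown to differ from the rest. Its effect was 1.37 above the mean of the other 8 types (limma adjusted p = 0.229), and the F test among types gave a limma adjusted p of 0.467. The NKT arrays read 8.81, 7.38 and 7.82 before and 10.53 and 8.59 after, and the groups overlapped, since interferon array 2 lay under baseline array 1. The difference of 1.56 (SE 0.458, limma adjusted p = 0.029) fell to 0.59 (0.662) without NKT interferon array 1 and was not called without NKT baseline array 2 (1.24, 0.138) or 3 (1.46, 0.0585), with a preparation term (1.48, 0.0615), with NKT cells alone (1.56, 0.239) or with baseline replicate 3 alone (1.74, 0.243). Without NKT interferon array 2 it was 2.53 (limma adjusted p = 0.0015). In dendritic cells Tlr9 read 11.23, 10.99 and 10.79 before and 12.03 and 12.09 after, a difference of 1.06 (95% interval 0.13 to 1.99, limma adjusted p = 0.218). It was not called with the shared spread, and it was called when dendritic cells were fitted alone (limma adjusted p = 0.000758). Gamma-delta T cells reached 10.11 and 8.34, a difference of 0.82 (95% interval -0.11 to 1.75) with overlapping arrays, which turned to -0.30 with baseline replicate 3 alone and -0.06 without interferon array 1.

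**Figure D3:**
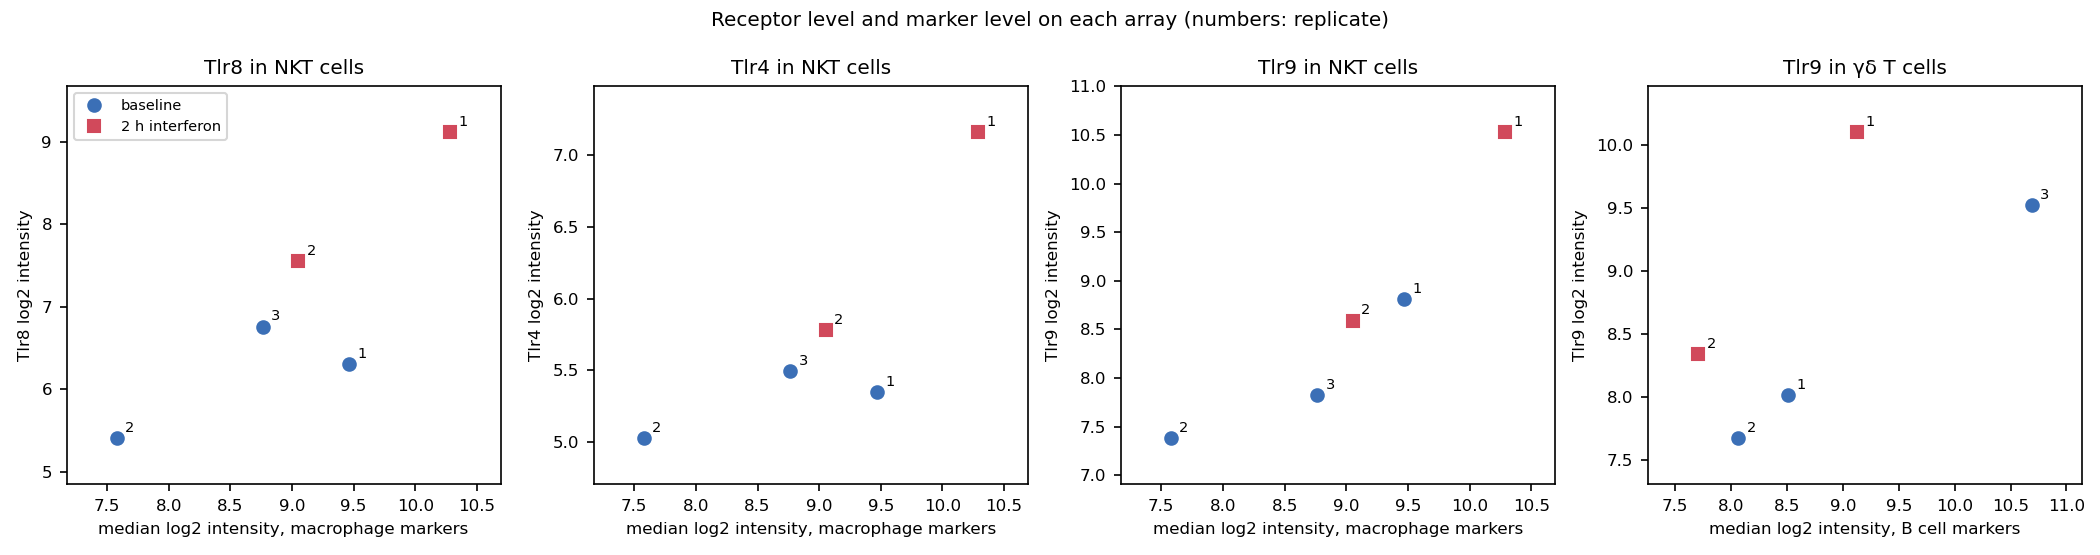
Receptor log2 intensity (vertical axes) against the median log2 intensity of a marker list (horizontal axes) on each array, for Tlr8, Tlr4 and Tlr9 with macrophage markers in NKT cells and for Tlr9 with B cell markers in gamma-delta T cells; circles are baseline, squares interferon and numbers the replicate. NKT interferon array 1 is highest on both axes in the first 3 panels, with a marker median of 10.29. In macrophages themselves, not shown, Tlr9 lay between 6.82 and 7.35 on all arrays, below every NKT array. The part of the markers was not tested.

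Among the surface receptors, Tlr4, the lipopolysaccharide receptor, was highest in neutrophils (8.39 ± 0.21, SD, n = 2) and macrophages (8.33 ± 0.44, n = 3) at baseline. NK cells came next at 6.59 ± 0.30, which was 1.74 below macrophages (limma adjusted p = 9.09e-07). They read 6.26, 6.68 and 6.85, all above the dendritic cell arrays at 6.13, 5.68 and 5.79, a difference of 0.73 that missed the fold threshold. The remaining 5 types lay between 4.67 and 5.29.

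Neutrophils moved from 8.24 and 8.54 to 10.30 and 10.18 for Tlr4 after interferon, a difference of 1.84 (SE 0.309, 3.58-fold, limma adjusted p = 5.81e-05). This was 1.34 more than the mean of the other 8 types (SE 0.326, limma adjusted p = 0.0113, background 1.04% raised). The latter call was lost without neutrophil baseline array 1 (1.19, limma adjusted p = 0.156), without interferon array 1 (1.28, 0.0976) or with array weights (1.22, 0.0516). B cell markers in neutrophil arrays had medians of 9.02 and 8.03 at baseline and 6.58 and 6.61 after interferon, with 6 of 9 lowered, and the median of neutrophil markers lay between 12.78 and 13.16 in all 4 arrays. Plasmacytoid dendritic cell markers had medians of 6.86 to 7.40 at baseline and 8.23 to 8.44 after interferon, with Bst2 and Tcf4 raised. The part of these markers in the neutrophil results was not tested.

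NKT cells moved from 5.35, 5.03 and 5.49 to 7.16 and 5.78 for Tlr4, a difference of 1.18 (SE 0.282, limma adjusted p = 0.00547). Both interferon arrays were above the baseline arrays, but without interferon array 1 the difference was 0.49 and not called, and without array 2 it was 1.87. The call was also lost with a preparation term (0.96), with NKT cells fitted alone (limma adjusted p = 0.176) and with baseline replicate 3 alone (0.98). The macrophage markers given for Tlr8 apply to the same arrays. In macrophages 8.04, 8.13 and 8.84 stood against 9.40, a difference of 1.07 (95% interval 0.34 to 1.80, limma adjusted p = 0.149) that was called without macrophage baseline array 3 (1.32, 0.0391). Over the 9 types the average Tlr4 difference was 0.65 (SE 0.0981), and the F test for a difference among types gave a limma adjusted p of 0.0495.

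Tlr2, the shared subunit of the lipopeptide receptors, was high in neutrophils (9.73 ± 0.64), macrophages (9.32 ± 0.28) and dendritic cells (8.50 ± 0.18) and lay between 7.11 and 7.46 in the 6 lymphocyte types. Dendritic cells exceeded the highest lymphocyte type by 1.03 (limma adjusted p = 2.26e-05), and no pair of neighbours among lymphocytes was called. Neutrophils read 9.27 and 10.18 before and 10.76 and 10.72 after interferon, a difference of 1.01 (SE 0.22, limma adjusted p = 0.00142). It lay at the fold threshold and lost its call in several settings, with 0.56 without neutrophil baseline array 1, 0.99 without interferon array 1, 0.86 after quantile normalisation and 0.91 with a preparation term. In the other 8 types Tlr2 differences ran from -0.19 to 0.45 and none was called.

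Tlr1, one partner of Tlr2, did not share its distribution. Dendritic cells (10.14 ± 0.12, SD, n = 3) and regulatory T cells (9.96 ± 0.10) were highest and overlapped, CD8+ T cells (9.35), CD4+ T cells (9.11) and then gamma-delta T cells (8.61) followed, and macrophages (7.65), NKT cells (7.15) and neutrophils (6.91) were lower. NK cells were lowest at 5.49 ± 0.12, which was 1.42 under neutrophils (limma adjusted p = 1.78e-05). Over the 9 baseline means Tlr1 and Tlr2 had a Pearson r of -0.13, and Tlr2 and Tlr6 one of 0.92.

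Tlr1 was the only receptor with a lowered effect. Dendritic cells read 10.25, 10.17 and 10.01 before and 8.98 and 8.99 after interferon, 2.23-fold lower, a difference of -1.16 (SE 0.248, limma adjusted p = 0.00174, background 0.810% lowered). Both interferon arrays lay below all 3 baseline arrays. The effect was lower by the same size than the mean of the other 8 types, -1.16 (SE 0.265, limma adjusted p = 0.00998). That second call was lost without either dendritic cell interferon array (limma adjusted p = 0.0971 without array 1 and 0.127 without array 2) and with baseline replicate 3 alone (-0.99, 0.167), whereas the difference within dendritic cells was called with each array of the study left out, at -1.22 to -1.10. B cell marker medians in dendritic cell arrays were 7.38, 7.03 and 6.68 before and 6.58 and 6.73 after interferon, with 1 of 9, Cd79b, lowered; their part in the result was not tested. In the other 8 types Tlr1 differences ran from -0.28 to 0.47.

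Tlr6, the other partner of Tlr2, lies beside Tlr1 on chromosome 5 with 0 protein-coding genes between them. It was highest in neutrophils at 8.95 ± 0.02 (SD, n = 2), 1.29 above dendritic cells (limma adjusted p = 9.08e-06). Dendritic cells (7.66) and macrophages (7.57) overlapped, the T and NKT cells lay between 6.54 and 6.93, and NK cells were lowest at 5.86. Pearson r between Tlr1 and Tlr6 over the 9 baseline means was 0.05. After interferon the differences of Tlr6 ran from -0.40 in dendritic cells to 0.68 in macrophages, and none was called, with an unadjusted limma p under 0.05 in 2 types (CD8+ T cells and macrophages). The average of 0.26 (SE 0.0743, limma adjusted p = 0.0066) passed the p threshold and was well under the fold threshold. The lowest adjusted p of Tlr6 within a cell type was 0.296, in gamma-delta T cells.

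The first of the 2 Tlr6 promoters in RefSeq's table is shown for contrast, since this receptor was not called in any type and its window held 2 ISRE matches. They overlap in chr5:64959117-64959416 on the minus strand (GRCm38.p6), at -116 to -107 and -110 to -101 from the start, and capitals mark both together in the complement form TTTCTCTTTC and TTTCACTTTC. Among the members with a promoter in the table, this was the only window with an ISRE match. Its IRF motifs at -239 to -232 and -104 to -97 are not marked separately.
Tlr6: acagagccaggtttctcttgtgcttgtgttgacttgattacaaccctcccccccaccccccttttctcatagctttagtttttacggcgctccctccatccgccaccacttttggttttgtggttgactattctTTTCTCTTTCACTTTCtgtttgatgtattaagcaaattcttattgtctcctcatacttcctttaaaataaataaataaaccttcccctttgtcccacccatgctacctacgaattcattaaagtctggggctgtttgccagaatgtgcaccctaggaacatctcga
The windows cover 300 bases only, so motifs elsewhere were not searched.

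**Figure D4:**
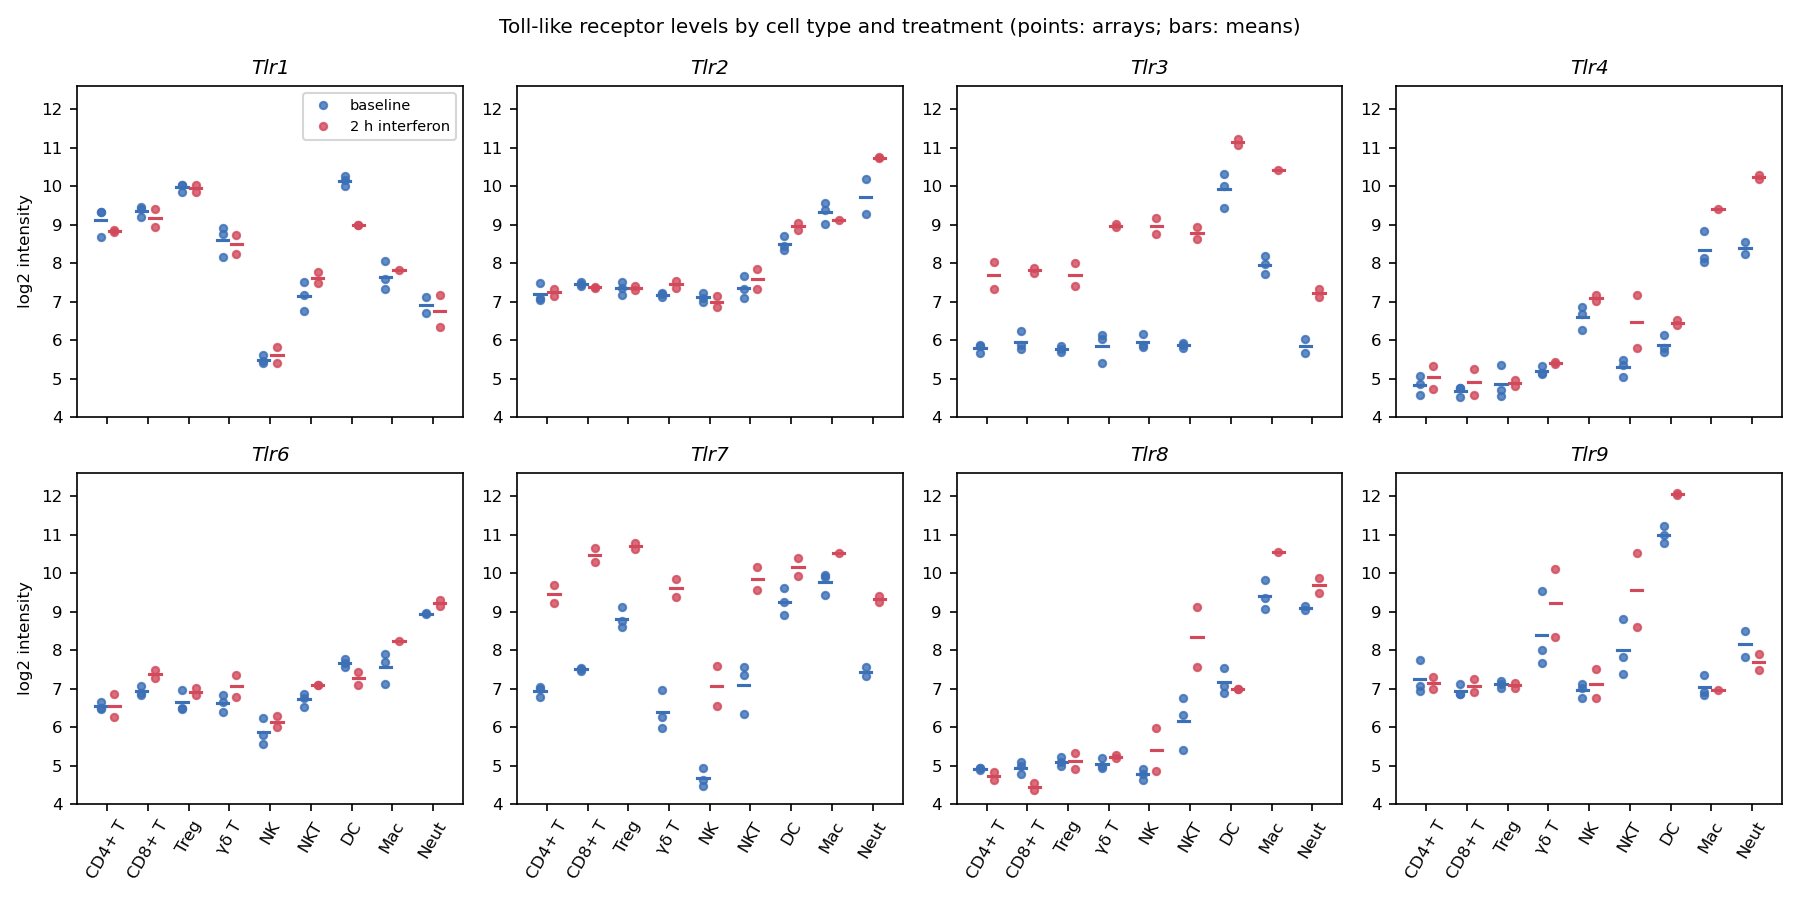
Log2 intensity of each receptor on every array (points) by cell type, at baseline (blue) and 2 h after interferon (red), with bars at group means. In the Tlr3 and Tlr7 panels the interferon points lie above the baseline points in every column, and in the Tlr1 panel dendritic cells have a mean of 8.98 after interferon against 10.14 at baseline.

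Set side by side at baseline, 7 of the 8 receptors were higher in the myeloid types than in the 6 lymphocyte types, where 5.24% of all genes were raised. The differences were 3.40 for Tlr8, 2.29 for Tlr4, 2.05 for Tlr3, 1.92 for Tlr7, 1.91 for Tlr2, 1.51 for Tlr6 and 1.29 for Tlr9. These are means over 3 types and need not hold for each. For Tlr9 dendritic cells stood at 11.00 while macrophages (7.03) lay among the lower lymphocyte types, and for Tlr3 neutrophils (5.86) were within the lymphocyte range. Tlr1 differed by -0.04 (95% interval -0.28 to 0.19, limma adjusted p = 0.803). Of the 288 receptor-by-pair baseline comparisons 159 were called, against 9.59% of all such comparisons over all genes. By receptor, between 14 (Tlr9) and 25 (Tlr1 and Tlr7) of 36 pairs were called.

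By cell type, NKT cells had the most raised receptors after interferon, 5 of 8 (Tlr3, Tlr4, Tlr7, Tlr8 and Tlr9), where 2.89% of all genes were raised. The receptor median was 1.37 in NKT cells against -0.10 for all genes, and 3 of the 5 calls, those of Tlr4, Tlr8 and Tlr9, were lost with NKT cells fitted alone. Neutrophils had 4 (Tlr2, Tlr3, Tlr4 and Tlr7, background 2.43%). NK cells (1.25%), gamma-delta T cells (1.53%), regulatory T cells (1.11%), CD8+ T cells (1.00%) and CD4+ T cells (0.901%) had the same 2, Tlr3 and Tlr7. Dendritic cells (2.34%) and macrophages (1.35%) had 1, Tlr3.

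Other genes with a like baseline distribution were found by Pearson r over the 9 baseline means among 7416 genes whose means spanned at least 1 log2 unit; the values describe 9 points that share arrays. Closest to Tlr2 were Mcemp1 (0.995), Cd33 (0.991) and Card9 (0.988), a signalling adaptor of myeloid cells. Tlr8 was most like Wdfy3 (0.994) and Pla2g7 (0.991), and Tlr4 most like Metrnl (0.984). For Tlr3 the nearest were Rnd3 (0.991) and the chemokine gene Cxcl16 (0.985).

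Tlr9 was most like Kmo (0.988) and Ciita (0.987), the master regulator of MHC class II genes. Tlr7 was most like Cd86 (0.926), a costimulatory ligand, and among its nearest 4 was Ctss (0.907), an endosomal protease. Tlr6 had Ptpn6 (0.979) and Oasl2 (0.971), and Tlr1 the lowest likeness, with Adcy6 (0.91) and Gpr183 (0.9). Among the receptors themselves, Tlr2 and Tlr8 had an r of 0.97 and Tlr3 and Tlr9 one of 0.72.

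Of 73 pathway genes in 9 lists, 65 were measured. The 2 other receptors, Tlr12 and Tlr13, were called for interferon by limma in 0 cell types, with an unadjusted p under 0.05 in 1 and 2 types. Tlr13, a sensor of bacterial ribosomal RNA, was 5.24 higher in myeloid types than in lymphocytes at baseline. Of 6 co-receptor genes, Ly86 (MD-1) was called: it was lowered by interferon in neutrophils at -2.07 (SE 0.635, limma adjusted p = 0.028, background 2.85% lowered), beside the fall in B cell markers there, and raised in NKT cells at 1.84 (0.0433). Its neutrophil effect differed from the mean of the others by -2.76 (SE 0.67, limma adjusted p = 0.0114, background 1.31% lowered). The other co-receptors were not called within any type.

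Of 5 adaptors, Myd88 was raised in NK cells at 1.31 (SE 0.278, limma adjusted p = 0.00297) and dendritic cells at 1.13 (0.00719), and averaged 0.95 over the 9 types. Ticam2, which links Tlr4 to Ticam1, was lowered in dendritic cells at -1.09 (SE 0.229, limma adjusted p = 0.00136), -1.06 from the mean of the other types. Ticam1, the adaptor of Tlr3, averaged -0.40 (limma adjusted p = 5.29e-06) and was called in no type, though its unadjusted p was under 0.05 in 4. Of the 12 kinases and ubiquitin ligases, the largest average differences were 0.74 for Peli1 and 0.59 for Tbk1, both under the fold threshold. Tbk1, an IRF kinase, was raised in NKT cells at 1.43, and Peli1 was raised in NKT cells, dendritic cells, macrophages and neutrophils.

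Among 6 genes listed as acting with endosomal receptors was Unc93b1, the chaperone of Tlr3, Tlr7 and Tlr9. It averaged 0.02 (95% interval -0.20 to 0.24) and had an unadjusted limma p under 0.05 in 0 types. Pik3ap1 was raised on average at 1.38 (SE 0.105, limma adjusted p = 1.12e-12) and in 6 types. In neutrophils Ap3b1 was raised at 1.27, while Slc15a4, an endolysosomal transporter, was lowered at -1.45 and Cnpy3, a folding factor, at -1.03. Of 6 endosomal proteases, Ctss was raised on average at 1.16 and in gamma-delta T, NK and NKT cells and neutrophils. Its neutrophil effect of 2.84 exceeded the mean of the others by 1.88 (SE 0.214, limma adjusted p = 3.03e-07).

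Downstream, Irf7, the transcription factor that drives interferon genes after Tlr7 and Tlr9 signals, was raised in 9 of 9 types at 2.10 to 3.19, and it was the 1 of 8 transcription factors called on average, at 2.55 (SE 0.0833, limma adjusted p = 5.09e-23). Irf5 was raised in neutrophils at 1.40 and Irf8 in NKT cells at 1.17, and Irf8 in neutrophils differed from the other types by -1.53 (limma adjusted p = 0.0122). Of 10 inhibitors, Socs1, a suppressor of cytokine signalling, was raised in 9 types at 1.08 to 2.92, with neutrophils 1.55 above the others (limma adjusted p = 4.16e-05). Irak3 was lowered in neutrophils at -1.24. Of 10 downstream cytokines the largest average difference was 0.70, for Il10. In dendritic cells 4 were raised (background 2.34%), namely Il6 (1.99), Ccl3 (1.98), Ccl4 (1.17) and Tnf (1.01). Baseline means in myeloid types and lymphocytes were low for Il6 (4.03 and 3.25) and Il10 (4.35 and 4.59). Whether these readings stood above background was not tested. Il6 in macrophages rose by 2.37, which was 1.96 above the mean of the other types (limma adjusted p = 0.000867, background 0.258% raised), again with 1 interferon array.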

How the data were processed

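Expression was measured on 43 Affymetrix Mouse Gene 1.0 ST arrays in 18 groups. The deposited values are a linear intensity for each probe set and array, and Affymetrix Power Tools and RMA (probe summarisation and normalisation across arrays) are named per the submitters' processing notes; their versions were not given in the sources used here, and neither was the genome build. RMA makes arrays comparable by forcing like distributions, so a shift of all genes would not be seen. Intensities ran from 4.69 to 22042 with array medians of 105 to 125, and the deposited intensities were log2-transformed here with no further scaling. Of 24922 probe sets, 21425 carried 1 gene symbol in the platform annotation, 1399 several and 2098 none; the brightest probe set of a symbol was used, leaving 19752 genes. The number of arrays limits the precision.

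All groups were fitted together in limma 3.58.1 with R 4.3.3 (lmFit and eBayes with 25 residual degrees of freedom). The lone macrophage interferon array thus takes its spread from the other groups. Tests were two-sided, adjusted by Benjamini-Hochberg over all genes within a comparison, with intervals at 95%. The fit was tested on simulated data. The 8 receptors were all described; pathway genes were named as the largest called average change or the largest called difference in 1 cell type of each list, and other called list members were picked after their values were seen. The receptors, gene lists and comparisons were chosen with earlier results of these data known. Alternatives were the mean of probe sets, a filter on dim genes (kept if 2 or more arrays reached a log2 level of 7), quantile normalisation, a variance trend, array weights, each type alone, a term for preparation wording, baseline replicate 3 alone, arrays with conflicting tissue labels left out, a replicate block and each array left out. Promoters came from RefSeq (GRCm38.p6).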

Additional observations from a re-analysis of the deposited data

Results flagged for a closer look

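Several receptors differed in their interferon effect between cell types, each by a limma test of the difference itself. In NKT cells the Tlr8 effect was 1.96 above the mean of the other 8 types (SE 0.342, adjusted p = 0.00231, background 0.294% raised). In dendritic cells 3 receptors had a lower effect than the other 8 types, where 0.304% of all genes were lowered. These were Tlr1 by -1.16 (SE 0.265, 0.00998), Tlr3 by -1.09 (SE 0.243, 0.00812) and Tlr7 by -1.39 (SE 0.322, 0.0116). In neutrophils the Tlr4 effect was 1.34 higher (SE 0.326, adjusted p = 0.0113, background 1.04% raised). Each of these calls was lost in some fit that left out a single array of the cell type named. For Tlr7 the myeloid types also had a lower effect than the 6 lymphocyte types, by -1.44 (SE 0.232, adjusted p = 0.000115, background 0.228% lowered). That call was lost with baseline replicate 3 alone (-1.42). No group had 4 or more arrays, so single outlying arrays were not tested.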

How the results depend on the processing

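None of the 22 called effects within a cell type changed sign under the 53 settings run, whereas 26 of the 50 effects not called did in at least 1 setting, the largest of them 0.82. Of those given above, Tlr9 in gamma-delta T cells (0.82) was -0.30 and Tlr1 in CD4+ T cells (-0.28) was 0.15 with baseline replicate 3 alone. With 1 array left out, Tlr9 in gamma-delta T cells ran from -0.06 to 1.70 and Tlr8 in dendritic cells (-0.17) from -0.31 to 0.02. The count of 21 raised effects within cell types was 19 to 22 with each array left out, and the 1 lowered effect (1 to 1) and the 2 receptors raised on average (2 to 2) kept their counts. It was 12 with baseline replicate 3 alone, a fit of 8 cell types with 7 residual degrees of freedom in which 13 of the 18 calls that could be fitted were kept. The count of 5 called differences between 1 type and the other 8 was 8 after quantile normalisation, 8 with array weights and 1 with baseline replicate 3 alone, and 3 to 7 with arrays left out, the 3 arising without dendritic cell interferon array 1 or 2. The 4 receptors with an effect that differed among types became 8 with array weights and 0 with baseline replicate 3 alone, where 2 had an unadjusted limma p under 0.05 (3 to 4 with arrays left out). The 1 receptor differing between myeloid types and lymphocytes became 0 with baseline replicate 3 alone, where 3 had an unadjusted p under 0.05, and was 1 to 2 with arrays left out, with 2 (Tlr3 as well) without the macrophage interferon array. The array-weights fit did not fully converge. Baseline counts were 154 to 164 of 288 pairs against 159, and 7 to 7 receptors. The fit with baseline replicate 3 alone has fewer arrays and also leaves out the preparation wording of baseline arrays 1 and 2. The causes were not tested.

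With the replicate number as a block, 22 of 22 called effects were kept (21 raised). Deviations of same-numbered arrays from their group means correlated from -0.30 to 0.35 over 16 pairs, 7 of them over 0.1. Both neutrophil pairs gave 0.35, since the deviations in groups of 2 arrays mirror each other. The numbers were not taken to pair the arrays. Groups of 1 to 3 arrays and the single macrophage interferon array limit what could be called.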
